A study of Arabidopsis thaliana with 305 samples.

Results

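The light-harvesting and photosystem genes described here are 42 nuclear genes of Arabidopsis thaliana that encode antenna proteins and subunits of photosystem I (PSI) and photosystem II (PSII). They were taken by gene identifier from a table of 25320 genes. All 42 were in the table and all 42 passed the filter on low counts. They fall into 4 classes: 14 LHCB genes for the antenna of PSII, 6 LHCA genes for the antenna of PSI, 12 PSA genes for PSI subunits and 10 PSB genes for PSII subunits. By chromosome, 17 lie on chromosome 1, 8 on chromosome 2, 7 on chromosome 3, 6 on chromosome 4 and 4 on chromosome 5. LHCB1.1, LHCB1.2 and LHCB1.3 are neighbours on chromosome 1, and LHCB1.4 and LHCB1.5 are neighbours on chromosome 2.

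In the chloroplast, LHCB and LHCA proteins bind chlorophyll and pass light energy to the reaction centres, whose cores are largely encoded by the chloroplast genome, while the subunits considered here are made in the cytosol and imported. Their mRNAs are among the most abundant of a green leaf, and their transcription is known to respond to light, to the circadian clock and to chloroplast signals through factors such as GLK1 and GLK2. Photosynthesis genes are widely known to be repressed when leaves perceive bacteria.

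The samples were leaf discs of 6-week-old plants grown in short days, hand-infiltrated with bacteria. The 4 genotypes were wild-type Col-0, the nrg1.1 nrg1.2 double mutant (nrg1), the triple mutant of ADR1, ADR1-L1 and ADR1-L2 (adr1), and a line without either family (helperless). NRG1 and ADR1 proteins are helper NLRs, intracellular receptors that act downstream of the sensors for bacterial effectors. Leaves of each genotype were taken untouched (T0), or 0.5, 4 or 8 h after they received the strain Pf0 (named so in the study's design text) carrying an empty vector (EV) or 1 of the 3 effectors AvrRps4, AvrRpt2 and AvrRpm1. The labels' treatment text describes strains of Pst DC3000 for growth assays only. Every group had 3 replicates, which gave 52 groups and 156 replicates. Nothing in the labels says that replicates were separate plants or experiments, so p-values measure the spread between these samples. No mock infiltration and no uninfiltrated leaf at a later hour was analysed here, so infiltration, bacterium and time of day cannot be told apart in a comparison of EV with T0.

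Total counts per replicate ran from 4276389 to 28926563. ADR1-L1 counts divided by ADR1-L2 counts, a quotient that separates the genotypes with and without functional ADR1 genes among infiltrated samples, went against the label in 10 of 305 libraries. Under EV at 8 h these were all libraries of replicate 3 in Col-0, adr1 and helperless and 1 library of replicate 3 in nrg1. Under AvrRpm1 they were both libraries of adr1 replicate 2 (8 h) and 1 library of nrg1 replicate 3 (4 h). The groups are meant by their labels. All counts of members called were also taken without these libraries, and those at 8 h are given beside their results.

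In uninfiltrated Col-0 leaves the 42 genes took 21.5% to 22.6% of all counts. Levels per length are CPM per kb of exon, where CPM are counts scaled to a common library total with edgeR's TMM factors, as mean ± SD of 3 replicates. LHCB1.3, which encodes a protein of the trimeric antenna LHCII, stood first at 24677 ± 631 CPM per kb, followed by LHCB1.5 at 10835 ± 737. LHCA4, an antenna protein of PSI, came next at 8913 ± 310. The most abundant subunit genes were PSBR, which is needed for a stable oxygen-evolving complex, at 4744 ± 724 CPM per kb, and PSAF, which helps to bind plastocyanin, at 4180 ± 174. The order ended with PSBS, the sensor of photoprotective quenching, at 547 ± 61.4, the minor PSAH copy PSAH1 at 439 ± 30.7, and the low-abundance antenna genes LHCA5 at 132 ± 11.4, LHCA6 at 97.8 ± 6.37 and LHCB4.3 at 7.01 ± 0.879. Of the 41 pairs of neighbours in this order, 24 had overlapping replicate values in Col-0, so only coarse ranks are separated. Reads of the LHCB1 and LHCB2 copies cannot be fully assigned: between 10.6% and 28.2% of the 50-base stretches of LHCB1.1 to LHCB1.5, LHCB2.1 and LHCB2.2 also occur in another gene, mostly another copy. For LHCB2.3, PSAG, PSAH1, PSAE1 and PSAH2 between 19.1% and 58.8% of such stretches overlap a neighbouring or antisense gene, and the strand setting of the counting is not given in the sources used here.

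The share of counts taken by the members fell after infiltration with EV in all 4 genotypes. At T0 the 12 replicates of the 4 genotypes lay between 18.9% and 25.8% (median 22.5%). At 0.5 h they lay between 11.5% and 15.4% (median 13.2%), at 4 h between 1.64% and 7.34% (median 3.60%), and at 8 h between 0.609% and 4.01% (median 1.45%). The T0, 0.5 h and 4 h values did not overlap with each other, whereas those of 4 h and 8 h did. In bulk leaf discs, fewer mesophyll cells and less of these mRNAs per cell cannot be told apart. The summed level of 6 epidermis markers in Col-0 was 631 to 1326 CPM at T0, 836 to 1020 CPM at 4 h under EV and 229 to 320 CPM at 8 h. That of 6 vascular markers was 526 to 626, 359 to 483 and 447 to 504 CPM at the same points, and that of 6 guard cell markers 46.1 to 81.5, 28.2 to 45.0 and 38.7 to 49.1 CPM. No marker of the 3 lists was at 0 in any of these groups, and a part of cell composition in the results was not tested.

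**Figure D1:**
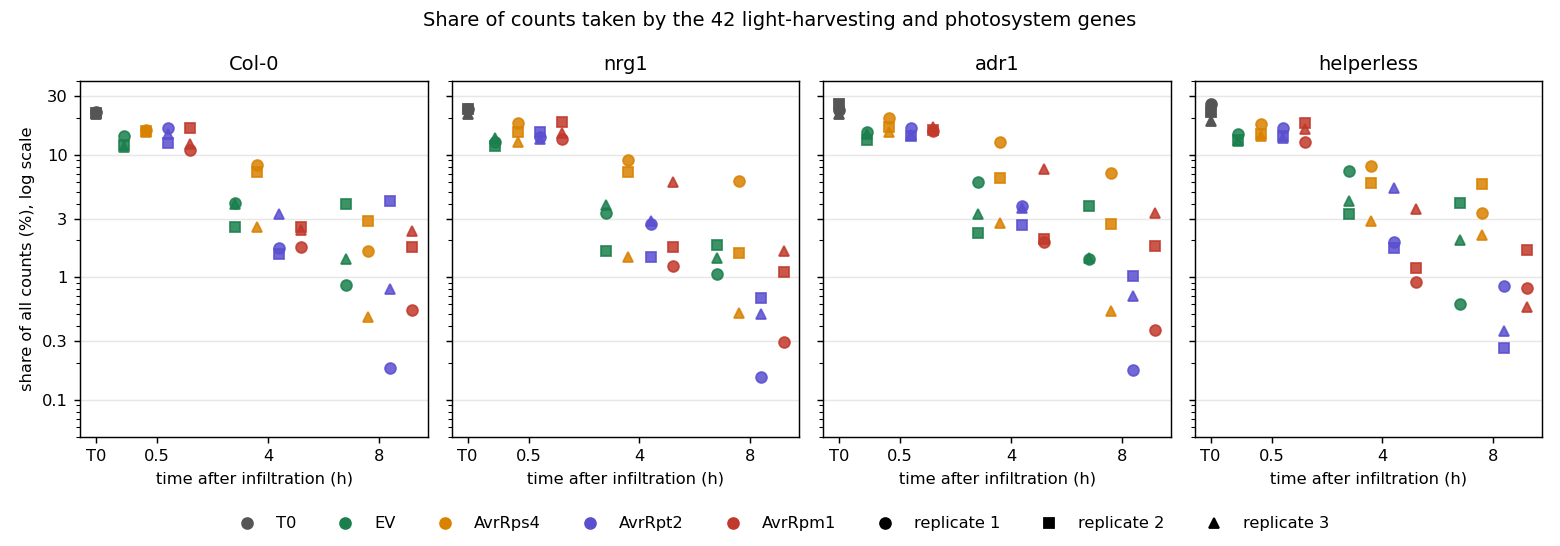
Share of all counts (percent, log axis) taken by the 42 genes in each replicate, by genotype (panels), time after infiltration in h (x axis) and bacterium (colour), with marker shapes for replicates 1 to 3. Values fell from a median of 22.5% of the counts at T0 to a median of 3.60% at 4 h and 1.45% at 8 h under EV, and replicates of a group spread more widely at 4 and 8 h than at T0.

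At 0.5 h under EV, the levels of nearly all members differed from T0 by less than the error once libraries were scaled by TMM. In Col-0, 1 of 42 was called higher, where called means a Benjamini-Hochberg adjusted p under 0.05 and a change of at least 1 on the log2 scale in edgeR's quasi-likelihood test, and none was called lower. Over all 19687 genes tested, 14% were called higher and 8.48% lower. The members' median log2 fold change was -0.10, with class medians of -0.40 for LHCB, -0.21 for LHCA, -0.03 for PSI and -0.03 for PSII, against -0.03 for all genes. These values depend on the scaling. With library totals alone, an alternative chosen after the data were seen, the members' median at 0.5 h was -0.69 and that of all genes -0.62, so that the members stood -0.07 from the median gene, as with TMM. On that scale no member was called in Col-0, and the change of LHCB4.3, given next, was 0.61 and not called. The member that rose was LHCB4.3 (AT2G40100), a rare relative of the minor PSII antenna protein LHCB4. Its CPM in Col-0 were 8.71, 11.1 and 10.6 at T0 and 33.6, 16.0 and 19.9 at 0.5 h, so that all 3 infiltrated replicates lay above all 3 uninfiltrated ones. The log2 fold change was 1.19 ± 0.39 (SE; adjusted p = 0.0124), and it was 1.52 in nrg1, 1.5 in adr1 and 1.43 in helperless, where 13.7%, 12.4% and 12.4% of all genes were called higher. This call was lost without replicate 2 in each genotype, and in Col-0 also without replicate 1. LHCB4.3 was also above its T0 range at 0.5 h with AvrRpt2, at 16.5, 17.2 and 25.3 CPM, and with AvrRps4, at 13.3, 13.5 and 17.1 CPM. With AvrRpm1 it was at 14.4, 9.84 and 3.28 CPM, which overlaps with T0.

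By 4 h under EV the antenna and photosystem genes had fallen as a block. In Col-0, 41 of 42 members were called lower, against 25.7% of all genes tested, and the median log2 fold change of the members was -2.65 against 0.02 for all genes. The fall was 13 of 14 for LHCB (median -3.19), 6 of 6 for LHCA (-2.62), 12 of 12 for PSI (-2.36) and 10 of 10 for PSII (-2.69). The exception was again LHCB4.3, at -0.63 ± 0.39 (adjusted p = 0.148). The steepest falls were those of LHCB2.3 (AT3G27690), a trimeric LHCII protein, at -5.76 ± 1.3 (adjusted p = 7.88e-05), and LHCA6 (AT1G19150), which links PSI to the chloroplast NDH complex, at -5.60 ± 1.06 (adjusted p = 3.98e-06). They were followed by LHCB2.2 (AT2G05070) at -3.97 ± 1.03 and PSBO2, the minor copy of the manganese-stabilising subunit, at -3.84 ± 0.92. Among PSI genes PSAH2, which helps to dock LHCII, fell most at -3.37 ± 0.73, and PSAE2, a stromal subunit that helps to bind ferredoxin, fell least at -1.65 ± 0.49. Without replicate 1, 2 or 3 in all groups, 42, 36 and 40 members were called lower.

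The LHCB genes with the highest mean CPM had also fallen by 4 h. LHCB1.3 (AT1G29930) stood at 29485, 30596 and 30979 CPM at T0, at 27379, 26793 and 30697 CPM after 0.5 h, at 7880, 4006 and 7390 CPM after 4 h, and at 1013, 5253 and 2192 CPM after 8 h. LHCB1.5 (AT2G34420) stood at 11812, 10435 and 11722 CPM at T0, at 9591, 7654 and 5460 CPM after 0.5 h, at 3048, 1979 and 3015 CPM after 4 h, and at 440, 2862 and 803 CPM after 8 h. LHCB1.1 (AT1G29920) stood at 10154, 9592 and 8904 CPM at T0, at 8662, 7627 and 9649 CPM after 0.5 h, at 1164, 971 and 2002 CPM after 4 h, and at 43.0, 571 and 207 CPM after 8 h. For all 3 genes the 4 h values lay below all T0 and 0.5 h values. At 8 h replicate 2 was the highest and replicate 1 the lowest, and the 8 h range of LHCB1.3 and of LHCB1.5 overlapped with that of 4 h.

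Among the PSI antenna genes, LHCA4 (AT3G47470) stood at 11998, 11389 and 11240 CPM at T0, at 11074, 9612 and 7452 CPM after 0.5 h, at 2506, 1565 and 2264 CPM after 4 h, and at 333, 1411 and 569 CPM after 8 h. LHCA1 (AT3G54890), another protein of the LHCA belt, stood at 7822, 7093 and 7357 CPM at T0, at 6824, 5954 and 4769 CPM after 0.5 h, at 1075, 621 and 1038 CPM after 4 h, and at 188, 617 and 266 CPM after 8 h. LHCA3 (AT1G61520), also of the belt, stood at 5198, 5157 and 5357 CPM at T0, at 5155, 4373 and 3519 CPM after 0.5 h, at 984, 580 and 927 CPM after 4 h, and at 217, 912 and 299 CPM after 8 h. In all 3 every 0.5 h value lay below every T0 value, but none of the 3 was called at 0.5 h. For LHCA3 the highest 0.5 h value was 5155 CPM and the lowest T0 value 5157 CPM. The share of all genes that separated in this way was not counted. LHCA6, the least abundant antenna gene of PSI, was at 105, 117 and 119 CPM at T0 and at 116, 105 and 87.1 CPM after 0.5 h, but at 2.32, 2.11 and 2.60 CPM after 4 h, and at 0.513, 6.18 and 0.711 CPM after 8 h.

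Of the PSI subunits, PSAF (AT1G31330) stood at 5252, 4996 and 4838 CPM at T0, at 5435, 4697 and 4411 CPM after 0.5 h, at 1340, 884 and 1219 CPM after 4 h, and at 369, 1148 and 500 CPM after 8 h. PSAL (AT4G12800), the subunit that holds the PSI side where LHCII docks, stood at 3869, 4086 and 4233 CPM at T0, at 4383, 4182 and 3909 CPM after 0.5 h, at 917, 617 and 899 CPM after 4 h, and at 239, 701 and 322 CPM after 8 h. PSAG (AT1G55670), a membrane subunit that contacts the LHCA belt, stood at 2804, 2988 and 2863 CPM at T0, at 2945, 2826 and 2753 CPM after 0.5 h, at 696, 425 and 628 CPM after 4 h, and at 165, 621 and 264 CPM after 8 h. Their 0.5 h values overlapped with T0 and their 4 h values did not. The PSII subunits followed the same course. PSBO1 (AT5G66570), the major manganese-stabilising subunit, stood at 4805, 5670 and 5527 CPM at T0, at 5279, 5661 and 5123 CPM after 0.5 h, at 875, 712 and 960 CPM after 4 h, and at 231, 845 and 309 CPM after 8 h. PSBR (AT1G79040) stood at 3303, 3488 and 4365 CPM at T0, at 3900, 4019 and 4460 CPM after 0.5 h, at 1142, 688 and 1222 CPM after 4 h, and at 321, 768 and 400 CPM after 8 h. PSBP1 (AT1G06680), another extrinsic protein of the oxygen-evolving complex, stood at 4220, 4642 and 4582 CPM at T0, at 4574, 4504 and 3920 CPM after 0.5 h, at 505, 380 and 537 CPM after 4 h, and at 148, 638 and 187 CPM after 8 h.

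The changes of the other members lay within the same span. Among genes of trimeric LHCII, LHCB2.1 was at 4132, 4536 and 4659 CPM at T0, 3874, 3486 and 2549 CPM after 0.5 h, 372, 386 and 597 CPM after 4 h and 19.9, 309 and 76.0 CPM after 8 h, and each range lay below the one before it. The log2 fold changes of LHCB1.2, LHCB1.4, LHCB2.1 and LHCB3 were -3.78, -2.75, -3.30 and -3.59 at 4 h and -5.57, -3.75, -5.04 and -4.90 at 8 h. The minor antenna proteins, which link the trimers to the PSII core, are encoded by LHCB4.1, LHCB4.2, LHCB5 and LHCB6 besides LHCB4.3, and these changed by -2.58, -3.64, -3.09 and -3.56 at 4 h and -3.18, -4.12, -4.40 and -4.08 at 8 h. LHCB4.1 was at 4525, 4453 and 4604 CPM at T0, 977, 534 and 767 CPM after 4 h and 310, 838 and 351 CPM after 8 h, where replicate 2 was inside the 4 h range. Of the PSI antenna, LHCA2 and LHCA5 changed by -2.50 and -2.58 at 4 h and -3.25 and -3.41 at 8 h. The ferredoxin-side subunit genes PSAD1, PSAD2 and PSAE1 changed by -2.73, -2.35 and -2.37 at 4 h and -2.65, -2.84 and -3.20 at 8 h, with PSAD1 at 2902, 3071 and 3158 CPM at T0 and 212, 898 and 348 CPM after 8 h. PSAK and PSAO, for membrane subunits near the antenna contacts of PSI, changed by -2.51 and -2.42 and then -3.27 and -3.13. On the PSII side the changes were -2.73 and -2.62 and then -3.42 and -3.35 for PSBQ1 and PSBQ2 of the oxygen-evolving complex, and -2.35, -2.98 and -3.00 and then -3.16, -3.22 and -3.63 for the small membrane subunits PSBW, PSBX and PSBY.

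**Figure D2:**
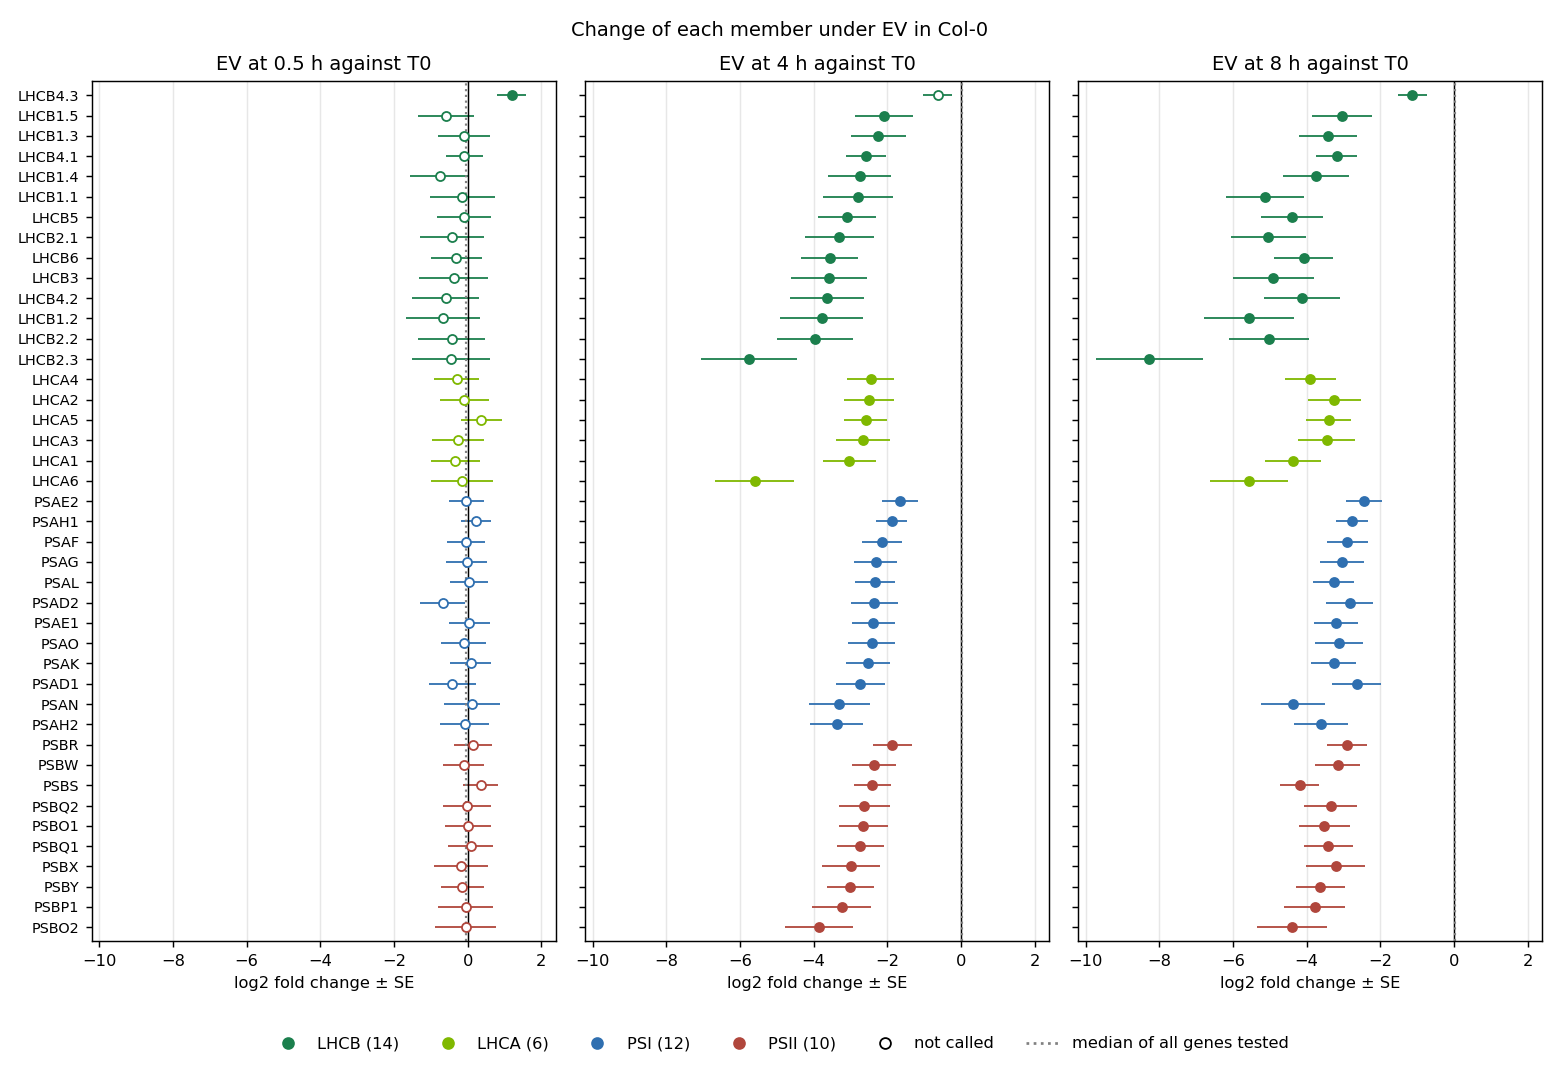
Log2 fold change ± SE (x axis) of each of the 42 members (y axis, by class and by change at 4 h) in Col-0 under EV at 0.5, 4 and 8 h against T0, from edgeR with 3 replicates a group. Filled points were called and open points were not, and the dotted line is the median of all genes tested. At 0.5 h only LHCB4.3 is filled, at 4 h all but LHCB4.3 lie at -1.65 or below, and at 8 h LHCB2.3 reaches -8.27.

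At 8 h under EV all 42 members were called lower than at T0 in Col-0, against 22.3% of all genes tested. The median log2 fold change was -3.44, with -4.26 for LHCB, -3.68 for LHCA, -3.08 for PSI and -3.47 for PSII. LHCB2.3 fell by 8.27 ± 1.46 on the log2 scale (adjusted p = 1.03e-06), LHCA6 by 5.57 ± 1.06 and LHCB1.2 by 5.57 ± 1.22. The steepest PSI and PSII falls were those of PSAN, a lumenal subunit near the plastocyanin site, by 4.37 ± 0.87, and PSBO2, by 4.41 ± 0.95. LHCB4.3 fell by 1.13 ± 0.40 (adjusted p = 0.0115), the smallest change of the 42. Without the libraries that went against their label, 41 members were called and the median was -3.26. From 4 to 8 h, 1 member was called lower in Col-0 (3.49% of all genes tested were), and this was PSBS (AT1G44575), at -1.79 ± 0.49 (adjusted p = 0.0109). PSBS was at 890, 969 and 1109 CPM at T0, at 1243, 1248 and 1297 CPM at 0.5 h, at 188, 164 and 209 CPM at 4 h and at 23.9, 83.7 and 54.4 CPM at 8 h, so all of its 0.5 h values lay above T0 and all of its 8 h values below 4 h. It was also called lower from 4 to 8 h in nrg1, adr1 and helperless, as 1 of 3, 3 and 5 members, where 6.10%, 7.0% and 4.19% of all genes were. The other calls were LHCB1.1 in all 3 mutants, LHCB1.2 in nrg1 and helperless, LHCB2.3 in adr1 and helperless, and LHCA1 in helperless. In Col-0 the members' share called was below that of all genes, and in nrg1 and adr1 it was near it. In these genotypes the calls are therefore not read as a result about the members. Leaving out any 1 replicate took the counts to 0 to 1 in Col-0, 0 to 2 in nrg1, 0 to 2 in adr1 and 0 to 1 in helperless, and without the libraries against their label they were 1, 4, 0 and 1, with the PSBS call lost in adr1.

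The 4 classes did not fall to the same extent, so their shares of the members' own counts shifted. Over the 12 replicates of the 4 genotypes, LHCB genes held 55.2% to 57.1% of the members' counts at T0 and 34.3% to 50.2% at 8 h under EV. PSI genes held 14.3% to 15.3% at T0 and 21.0% to 29.2% at 8 h, and PSII genes 12.5% to 14.5% and 15.2% to 21.7%. None of these T0 and 8 h ranges overlapped. LHCA genes held 14.7% to 16.5% at T0 and 13.6% to 17.4% at 8 h, which do overlap. In each class the lowest and the highest value at 8 h came from replicates 1 and 2, whereas the libraries against their label under EV were of replicate 3. At 4 h the order of the classes was less clear, with LHCB at 47.2% to 55.8% and PSII at 12.8% to 16.6%.

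Copies of the same subunit also parted, as did LHCA5 and LHCA6, which encode different antenna proteins of PSI. The log2 ratio of PSAH1 to PSAH2 in Col-0 was -1.08 ± 0.08 at T0 and 0.42 ± 0.07 at 4 h (mean ± SD, 3 replicates), so the copy that was the lower at T0 was at least as high at 4 h. At 4 h this ratio was 0.78 ± 0.30 in nrg1, 0.51 ± 0.17 in adr1 and 0.05 ± 0.12 in helperless. At 8 h in Col-0 it was -0.003 ± 0.49, with replicates from -0.55 to 0.41. The ratio of PSBO1 to PSBO2 went from 2.11 ± 0.06 to 3.29 ± 0.32, and that of PSAE1 to PSAE2 from 2.3 ± 0.07 to 1.58 ± 0.05. That of LHCB4.1 to LHCB4.2, both for a minor PSII antenna protein, went from 0.24 ± 0.11 to 1.29 ± 0.21, and that of LHCA5 to LHCA6 from 0.31 ± 0.07 to 3.08 ± 0.11. In each of these 5 pairs the T0 and 4 h replicates did not overlap. The ratio of PSBQ1 to PSBQ2, another pair of the oxygen-evolving complex, was -0.64 ± 0.09 at T0 and -0.74 ± 0.12 at 4 h. The PSAH and PSAE pairs include genes with stretches shared with a neighbour, and whether reads from those neighbours move the ratios was not tested.

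**Figure D3:**
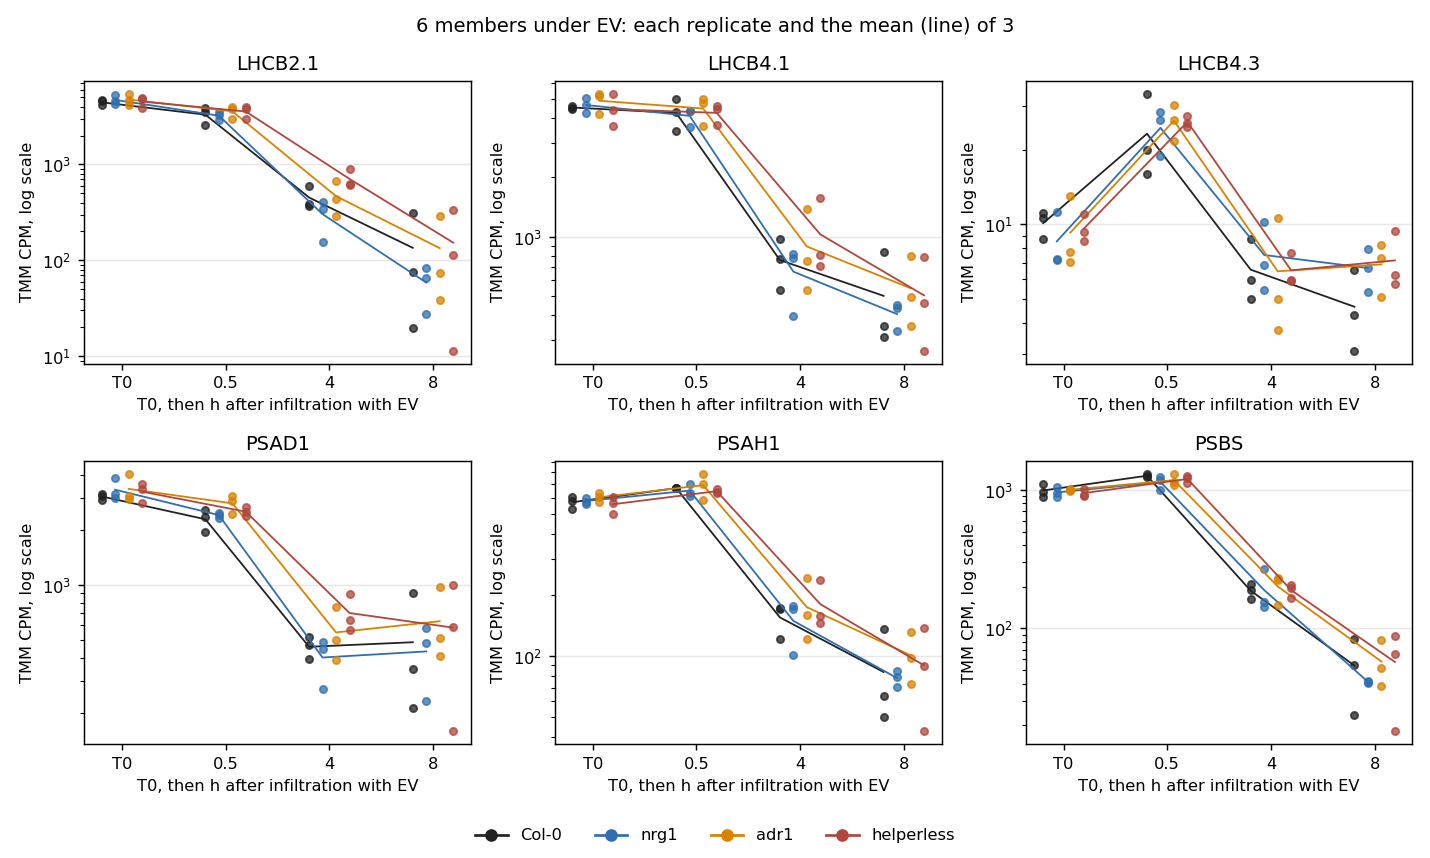
Normalised CPM (log axis) of LHCB2.1, LHCB4.1, LHCB4.3, PSAD1, PSAH1 and PSBS at T0 and at 0.5, 4 and 8 h under EV, with 1 point for each replicate, colours for genotypes and lines through the means of 3 replicates. LHCB4.3 peaks at 0.5 h, PSBS keeps falling from 4 to 8 h, and PSAD1 shows little further fall after 4 h.

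The fall under EV was also measured in the lines without NRG1, without the ADR1 family and without both. At 4 h 41 members were called lower in nrg1, 41 in adr1 and 39 in helperless, with medians of -2.86, -2.62 and -2.24, where 25.7%, 23.9% and 22.1% of all genes were called lower. At 8 h the counts were 41, 41 and 41, with medians of -3.98, -3.45 and -3.43, against 23.0%, 21.2% and 21.4% of all genes. The member not called at 8 h in the mutants was LHCB4.3. Without the libraries against their label the 8 h counts were again 41, 41 and 41, with medians of -4.01, -3.18 and -3.27. In all 4 genotypes together, 39 members were called lower at 4 h and 41 at 8 h. The share of all genes called in all 4 was not counted. LHCB1.4 and LHCB1.5 missed the call in helperless at 4 h, at -1.82 ± 0.82 and -1.58 ± 0.77. The count in helperless at 4 h dropped to 14 without replicate 2, and was 41 without replicate 1 and 35 without replicate 3. That of adr1 was 31 without replicate 2. The order of the members' changes was much alike between genotypes, which share no samples in these comparisons. Spearman's rho over the 42 members lay between 0.90 and 0.99 at 4 h and between 0.99 and 1.00 at 8 h. This describes genes that share libraries and depth. The genotypes were also not independent repeats. Between genotypes, replicates of the same bacterium and time correlated at a median of 0.474 with the same number and -0.233 with other numbers. A direct comparison of each mutant with Col-0 at T0, at 4 h and at 8 h under EV called no member in any of 9 contrasts with edgeR. No member reached an unadjusted p under 0.05, and DESeq2 also called 0. The 8 h contrasts also had 0 calls without the libraries against their label. Over all genes between 0% and 0.0711% were called higher and 0% lower. The members' median differences from Col-0 at T0 were 0.06 in nrg1, 0.13 in adr1 and 0.03 in helperless. At 4 h under EV the median was 0.54 in helperless, where all values of 4 members lay above those of Col-0. The share of all genes that separated in this way was not counted, so these 4 are not read as a difference between genotypes.

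Promoter sequences were compared to see whether the members that fell together share short motifs. The 250 bases before each annotated start were taken from RefSeq (assembly TAIR10.1), and all 42 members matched an entry by gene identifier. The letters CCAATC, reported as a motif of GLK factors, were searched on both strands. They occurred in 7 of 14 LHCB, 3 of 6 LHCA, 0 of 12 PSI and 1 of 10 PSII promoters, against 10.2% of the promoters of 27443 protein-coding genes. The sequences below show antenna genes with the motif first. Next are LHCB4.3, the 1 member not called at 4 h in Col-0, and LHCA6, 1 of the 2 with the steepest fall there. The PSAD copies, called lower with AvrRpm1 at 8 h in all 4 genotypes, come last. All sequences run 5′ to 3′ on the gene's strand, with CCAATC or its reverse complement in capitals. They lie at chr2:1824481-1824730 (minus strand), chr2:1800473-1800722 (minus), chr3:2717307-2717556 (plus), chr3:17495034-17495283 (minus), chr2:16745378-16745627 (plus), chr1:6612380-6612629 (plus), chr4:1230165-1230414 (minus) and chr1:754263-754512 (minus), in that order.
LHCB2.1: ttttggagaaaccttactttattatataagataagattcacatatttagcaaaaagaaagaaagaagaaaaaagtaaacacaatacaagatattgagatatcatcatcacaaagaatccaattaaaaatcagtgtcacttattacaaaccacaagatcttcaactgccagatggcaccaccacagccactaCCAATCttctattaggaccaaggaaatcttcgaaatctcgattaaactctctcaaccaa
LHCB2.2: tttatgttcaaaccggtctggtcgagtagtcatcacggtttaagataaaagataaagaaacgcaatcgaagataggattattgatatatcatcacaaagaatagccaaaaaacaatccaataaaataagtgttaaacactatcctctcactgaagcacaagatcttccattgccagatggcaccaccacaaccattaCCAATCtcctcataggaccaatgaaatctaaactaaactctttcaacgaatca
LHCB4.2: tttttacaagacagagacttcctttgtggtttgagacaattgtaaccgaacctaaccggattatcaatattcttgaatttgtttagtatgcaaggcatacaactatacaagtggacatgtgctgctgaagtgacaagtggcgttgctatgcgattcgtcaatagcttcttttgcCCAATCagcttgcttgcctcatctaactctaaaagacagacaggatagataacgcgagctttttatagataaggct
LHCA4: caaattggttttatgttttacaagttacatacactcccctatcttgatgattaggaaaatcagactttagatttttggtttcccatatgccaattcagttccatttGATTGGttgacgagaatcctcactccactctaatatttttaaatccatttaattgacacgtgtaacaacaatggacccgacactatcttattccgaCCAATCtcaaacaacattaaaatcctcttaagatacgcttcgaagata
LHCB4.3: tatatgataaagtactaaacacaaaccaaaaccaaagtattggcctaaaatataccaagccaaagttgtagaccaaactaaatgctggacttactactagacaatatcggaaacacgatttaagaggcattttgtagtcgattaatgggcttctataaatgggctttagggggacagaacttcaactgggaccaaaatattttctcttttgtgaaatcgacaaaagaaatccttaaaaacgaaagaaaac
LHCA6: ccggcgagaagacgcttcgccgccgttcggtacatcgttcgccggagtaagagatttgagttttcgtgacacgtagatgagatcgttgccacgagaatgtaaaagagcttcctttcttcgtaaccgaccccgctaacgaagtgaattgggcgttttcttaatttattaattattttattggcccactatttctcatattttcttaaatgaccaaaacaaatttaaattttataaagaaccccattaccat
PSAD1: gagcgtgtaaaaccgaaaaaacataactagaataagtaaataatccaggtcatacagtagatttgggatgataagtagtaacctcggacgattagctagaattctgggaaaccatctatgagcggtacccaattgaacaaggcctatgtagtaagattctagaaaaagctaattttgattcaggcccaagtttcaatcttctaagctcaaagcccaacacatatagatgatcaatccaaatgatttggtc
PSAD2: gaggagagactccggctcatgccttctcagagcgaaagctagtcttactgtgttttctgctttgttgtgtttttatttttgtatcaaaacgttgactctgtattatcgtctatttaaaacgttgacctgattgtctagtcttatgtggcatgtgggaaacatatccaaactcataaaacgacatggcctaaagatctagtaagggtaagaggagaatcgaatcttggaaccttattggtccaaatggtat

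A match is a description of these letters and not a bound site. LHCB2.1, LHCB2.2 and LHCB4.2 held 1 match each and LHCA4 held 2, whereas LHCB4.3, LHCA6, PSAD1 and PSAD2 held none. The G-box CACGTG was found in 8 of 42 member promoters against 6.49% of all, the I-box GATAAG in 9 of 42 against 12.3%, and the CCA1 site AACAATCT or AAAAATCT in 6 of 42 against 8.38%. The evening element AAAATATCT was found in 1 of 42 against 2.36%. The W-box TTGACC or TTGACT, known from WRKY factors of the immune response, was found in 5 of 42 against 28.4%, and PSAD2 held 2 matches. All motifs were searched on both strands, and overlapping matches of different motifs were each counted.

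At 0.5 and 4 h few members were called with an effector against EV at the same time. In Col-0 no member was called with any of the 3 effectors against EV at 0.5 h, where at most 0.0102% of all genes were called, and none at 4 h. At 4 h, 0.528%, 2.3% and 7.85% of all genes were called higher and 0%, 0.0254% and 1.79% lower with AvrRps4, AvrRpt2 and AvrRpm1. At an unadjusted p under 0.05 there were 0, 0 and 1 members at 0.5 h and 1, 0 and 1 at 4 h, and DESeq2 called 0 in all 6. For this and later counts at an unadjusted p, the share of all genes at that threshold is not given. The LHCB member with the largest difference at 4 h was LHCB2.3 with AvrRps4, at 2.72 ± 1.13 (adjusted p = 0.413), and the PSI member was PSAN, at 1.26 ± 0.77. With AvrRps4 at 4 h all 42 members had a positive log2 fold change in Col-0, with a median of 0.90 against 0.11 for all genes, and the medians were 0.99 in nrg1, 0.87 in adr1 and 0.13 in helperless. None of the 42 was called in any genotype, where 0.107% of all genes in nrg1 and 0% in adr1 and helperless were called higher, with 1, 6, 1 and 0 members with an unadjusted p under 0.05, and DESeq2 called 0. In none of the 42 members did the AvrRps4 and EV replicates separate: LHCB2.1 was at 1250, 1418 and 324 CPM with AvrRps4 and at 372, 386 and 597 CPM with EV in Col-0. Replicates 1 and 2 were high and replicate 3 was low. Share of counts followed the same split, with replicate 1 highest and replicate 3 lowest of AvrRps4 at 4 h in all 4 genotypes. The difference between helperless and Col-0 in this response had a median of -0.80, negative for 42 of 42 members, but no member was called, 0 reached an unadjusted p under 0.05 and DESeq2 called 0. With AvrRpt2 at 4 h no member was called in nrg1, adr1 or helperless, where 2.37%, 1.23% and 2.16% of all genes were called higher and 0.0914%, 0.0102% and 0.0152% lower. None reached an unadjusted p under 0.05 and DESeq2 called 0 in all 3. With AvrRpm1 at 4 h none was called in nrg1 or adr1, where 6.46% and 5.57% of all genes were called higher and 1.03% and 0.533% lower, with 0 and 1 at an unadjusted p under 0.05 and 0 and 1 called by DESeq2. In helperless, where 8.37% of all genes were called higher and 1.70% lower, 1 member was called lower, LHCB4.3 at -1.3 ± 0.42 (adjusted p = 0.0231). All 42 log2 fold changes were negative there, with a median of -1.04 against -0.05 for all genes, and 3 members had an unadjusted p under 0.05. Without replicate 3 in all groups 9 members were called lower and without replicate 2 none, DESeq2 called 2, and with unsummed libraries 19 were called. The medians with AvrRpm1 at 4 h were -0.19 in Col-0, 0.32 in nrg1 and 0.28 in adr1, and those with AvrRpt2 were -0.38, 0.02, 0.08 and -0.39 in the order Col-0, nrg1, adr1 and helperless.

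**Figure D4:**
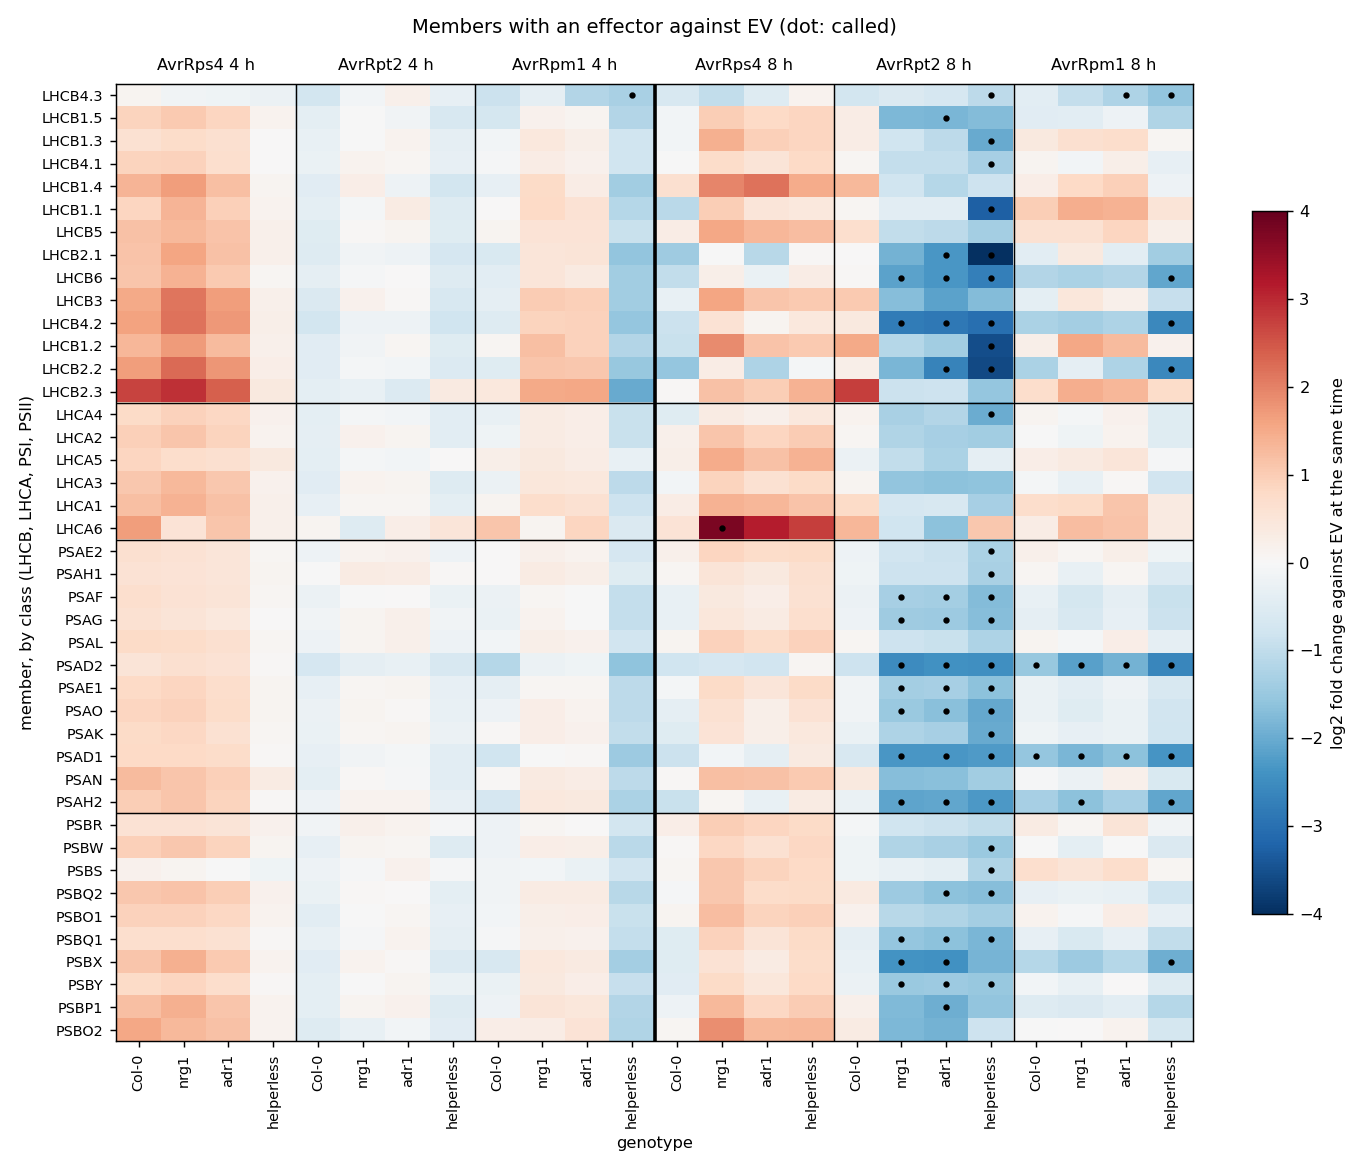
Log2 fold change of each member (rows, by class) with an effector against EV at the same time, for 3 effectors at 4 and 8 h (column blocks) in 4 genotypes (columns), on a scale from -4 to 4. Dots mark calls: they stand mostly in the mutants with AvrRpt2 at 8 h (12, 17 and 25 members) and on PSAD1 and PSAD2 with AvrRpm1 at 8 h.

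With AvrRpm1 at 8 h the 2 members called lower in all 4 genotypes were the PSAD pair, which encodes the stromal subunit where ferredoxin docks on PSI. With AvrRpm1, PSAD1 (AT4G02770) in Col-0 was at 52.4, 186 and 261 CPM against 212, 898 and 348 CPM with EV. PSAD2 (AT1G03130) was at 30.0, 59.6 and 131 CPM against 117, 374 and 142 CPM. Most AvrRpm1 values were below the EV values, but the ranges overlapped in both genes. PSAD1 changed by -1.54 ± 0.64 (adjusted p = 0.0435) and PSAD2 by -1.52 ± 0.62 (adjusted p = 0.0397), the only 2 of 42 members called lower in Col-0, where 11.5% of all genes were called lower and 16.5% higher, so the share called was below that of all genes. Both were also called lower in nrg1 (-1.84 and -2.17), adr1 (-1.65 and -1.88) and helperless (-2.36 and -2.60). The share of all genes called lower in all 4 genotypes was not counted. In the mutants the AvrRpm1 and EV ranges of PSAD2 did not overlap, at 37.8 to 50.4 against 99.8 to 427 CPM in helperless. The Col-0 calls were lost without replicate 1, without replicate 2 and with only the groups compared, and that of PSAD1 also without a filter. Without the libraries against their label 2, 3, 2 and 8 members were called in Col-0, nrg1, adr1 and helperless, and PSAD1 in adr1 and PSAH2 in nrg1 were no longer among them. The counts of members called lower with AvrRpm1 were 3, 3 and 8 in nrg1, adr1 and helperless, against 14.5%, 12.7% and 16.5% of all genes, while 16.5%, 19.3% and 18.6% were called higher. In nrg1 and adr1 the members' share was again below that of all genes. PSAH2 was called in nrg1 and helperless, LHCB4.3 in adr1 and helperless, and LHCB2.2, LHCB4.2, LHCB6 and PSBX in helperless alone of the 4, without a test of that difference in calls. No PSI antenna gene was called. Without replicate 2 the counts were 0, 0, 0 and 1 in the order Col-0, nrg1, adr1 and helperless.

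With AvrRpt2 at 8 h no member was called in Col-0, where 4.23% of all genes were called lower and 9.57% higher, with 1 member at an unadjusted p under 0.05 and 1 called higher by DESeq2. In the mutants 12 of 42 in nrg1, 17 in adr1 and 25 in helperless were called lower, where 13%, 14.5% and 8.53% of all genes were, with medians of -1.31, -1.37 and -1.63 against 0.08 in Col-0. In the same order 11.9%, 13.1% and 10.4% of all genes were called higher. By class, the calls in nrg1, adr1 and helperless were 2, 5 and 9 of 14 LHCB, 0, 0 and 1 of 6 LHCA, 7, 7 and 10 of 12 PSI, and 3, 5 and 5 of 10 PSII genes. In all, 28 members were called in at least 1 mutant, 15 in at least 2 and 11 in all 3. How many of all genes were called in several mutants was not counted. The 11 include LHCB4.2 and LHCB6, both minor PSII antenna proteins, and PSAD1, PSAD2 and PSAH2. LHCB2.1 in helperless showed the largest change of all, at -3.99 ± 0.98 (adjusted p = 0.00118), with 9.07, 9.19 and 10.6 CPM against 11.4, 334 and 114 CPM with EV. Every AvrRpt2 value was below every EV value, yet EV replicate 1 was close to them. In nrg1 27 members, in adr1 22 and in helperless 6 had all AvrRpt2 values below all EV values. The share of all genes that separated in this way was not counted, so these numbers have no background. PSAD2 in nrg1 was at 19.8, 54.4 and 41.5 CPM against 176, 275 and 212 CPM, a change of -2.52 ± 0.64 (adjusted p = 0.00131) with groups far apart. LHCB4.2 in adr1 was at 11.6, 50.0 and 43.5 CPM against 124, 467 and 172 CPM, a change of -2.86 ± 0.98 (adjusted p = 0.0142), also with no overlap. In Col-0 the AvrRpt2 replicates were 1 low, 1 high and 1 between: LHCB4.2 was at 7.94, 785 and 71.1 CPM against 75.4, 477 and 108 CPM, and PSAD2 at 15.8, 272 and 72.7 CPM against 117, 374 and 142 CPM.

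These counts rest on few libraries. Leaving out replicate 1, 2 or 3 in turn, 5, 1 and 5 members were called in nrg1, 6, 0 and 16 in adr1, and 40, 0 and 10 in helperless. Without the libraries against their label, the counts were 7, 19 and 21. With library totals in place of TMM factors they were 31 in nrg1 and 33 in adr1, and with unsummed libraries 26 and 27. The test of the difference between each mutant and Col-0 in the response to AvrRpt2 at 8 h called no member, with 5, 10 and 16 at an unadjusted p under 0.05 in nrg1, adr1 and helperless and 0 by DESeq2, and at most 0.00508% of all genes were called in either direction. The largest such difference was LHCB1.2 in helperless, at -5.07 ± 1.51 (adjusted p = 1.0). For the counts at an unadjusted p under 0.05, the share of all genes at that threshold is not given here. Of the 18 differences in response tested (3 mutants, 3 effectors, 2 times) none had a member called in the edgeR fit of group means or by DESeq2, and besides those of AvrRpt2 at 8 h only AvrRps4 at 8 h in nrg1 had a member with an unadjusted p under 0.05, 1 of 42. With unsummed libraries 2 were called lower for helperless with AvrRpt2 at 8 h. The fit of group means does not use the replicate numbers shared between genotypes. With a block of bacterium, time and replicate number, chosen after the data were seen, 1 member was called higher for helperless with AvrRps4 at 8 h. With that block the members' median difference was -0.74 for helperless with AvrRpt2 at 8 h. For nrg1 with AvrRps4 at 8 h it was 0.48. Both medians were smaller in size than without the block. Of all genes at most 0.193% were called higher and 1.57% lower in any of the 18.

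With AvrRps4 at 8 h 1 member was called higher in nrg1 and none in the other genotypes. Of all genes, 3.46%, 2.63%, 1.51% and 0% were called higher in Col-0, nrg1, adr1 and helperless and 1.06%, 0.340%, 0.137% and 0% lower. It was LHCA6, at 3.75 ± 1.06 (adjusted p = 0.0231), with 28.7, 1.48 and 0.203 CPM against 0.705, 0.791 and 0.738 CPM with EV. Replicate 1 alone was far above and replicate 3 was below every EV value. Without replicate 1 this call was gone, and 3 other members were called lower. The counts were 0, 1, 0 and 0 in the order Col-0, nrg1, adr1 and helperless without the libraries against their label. Unadjusted p under 0.05 was reached by 0 members in Col-0, 3 in adr1 and 2 in helperless, and DESeq2 called 0, 1 and 0. Between effectors in Col-0, none of 6 contrasts had a member called by edgeR, at 4 or 8 h, nor at 8 h without the libraries against their label. The largest medians were those of AvrRpt2 against AvrRps4 at 4 h, at -1.27 with 20 members at an unadjusted p under 0.05 and 0 called by DESeq2, and AvrRpm1 against AvrRps4 at 4 h, at -1.12 with 14 and 1. Of all genes, 0.0356% and 3.92% were called lower in these contrasts and 0% and 4.16% higher. These are shares of genes called, and the share of all genes at an unadjusted p under 0.05 is not given here. At 8 h AvrRpm1 and AvrRpt2 against AvrRps4 had medians of 0.01 and 0.22, with 1 and 2 members at an unadjusted p under 0.05 and 1 and 0 called by DESeq2, where 10.6% and 0.193% of all genes were called higher and 7.06% and 0.0203% lower. AvrRpm1 against AvrRpt2 had medians of 0.12 at 4 h and -0.13 at 8 h, with 0 members at an unadjusted p under 0.05 and 0 by DESeq2 at both, where 1.41% and 6.61% of all genes were called higher and 0.122% and 4.65% lower.

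The other genes of the photosynthetic pathway moved with the members under EV. Counts are for Col-0 at 4 h against T0, where 25.7% of all genes were called lower and 23.1% higher. All 11 genes of electron transport and the ATP synthase were called lower, with a median of -2.14, led by the ferredoxin gene FD2 at -4.60 ± 0.90, the plastocyanin gene PETE1 at -4.11 ± 0.88 and the ATP synthase delta subunit gene ATPD at -3.82 ± 0.65. FD2 was at 1929, 1858 and 1701 CPM at T0, 1960, 1667 and 2368 CPM at 0.5 h, and 86.6, 70.4 and 69.1 CPM at 4 h. Of 13 genes of chlorophyll synthesis 12 were called lower (median -3.44), led by GUN4 at -4.38 ± 0.95, PORC at -4.35 ± 0.91 and CHLH at -3.85 ± 0.78. In that order they encode an activator of magnesium chelatase, a protochlorophyllide reductase and a subunit of magnesium chelatase. CAO, which makes chlorophyll b for the antenna proteins, had fallen at 0.5 h, from 535, 502 and 504 CPM to 149, 119 and 93.3 CPM, a change of -2.09 ± 0.72 with no overlap. GUN4 was at 396, 443 and 437 CPM at T0 and at 117, 106 and 88.0 CPM at 0.5 h, a change of -2.04 ± 0.86 that did not pass the test.

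Of 7 genes for antenna insertion and phosphorylation 6 were called lower at 4 h (median -1.91), led by CPSRP43 at -3.41 ± 0.79, CPSRP54 at -2.93 ± 0.65 and the kinase gene STN8 at -2.92 ± 0.60. Of 9 stress-related relatives of the antenna 8 were called lower (median -2.47), led by LIL3.1 at -3.85 ± 0.75, OHP1 at -3.63 ± 0.77 and SEP2 at -2.92 ± 0.64. Of 8 genes of chlorophyll breakdown 3 were called lower and 1 higher, with a median of 0.13 against 0.02 for all genes. The stay-green gene SGR1, for the enzyme that takes magnesium from chlorophyll, rose by 1.23 ± 0.32, while its relative SGRL changed by -3.68 ± 0.56, RCCR by -1.97 ± 0.41 and NOL by -1.47 ± 0.47. At 8 h, where 22.3% of all genes were called lower and 19.2% higher, 3 were called lower and 3 higher, among them SGR2 at 3.42 ± 0.74 and the chlorophyll b reductase gene NYC1 at 2.01 ± 0.47. Among 13 regulators 11 were called lower and 1 higher at 4 h, led by the clock gene LHY at -4.49 ± 0.84, the GATA factor gene GNC at -4.31 ± 0.97 and the plastid sigma factor gene SIG6 at -4.10 ± 0.85. The 1 that rose was PIF3, at 1.83 ± 0.51. At 0.5 h, when 1 of 42 members was called, GLK1 (-1.1 ± 0.32), GLK2 (-1.90 ± 0.61) and CGA1 (-1.98 ± 0.56) were already called lower, 3 of 13 regulators against 8.48% of all genes. GLK2 was at 238, 211 and 226 CPM at T0 and at 55.9, 97.1 and 27.8 CPM at 0.5 h, without overlap. GLK1 was at 228, 117 and 266 CPM at T0 and at 112, 118 and 54.5 CPM at 0.5 h, with overlap. At 4 h neither AvrRpt2 nor AvrRpm1 against EV had a call in these 6 lists other than LHCB7, a stress-related relative of the antenna, which rose with AvrRpm1 by 1.23.

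**Figure D5:**
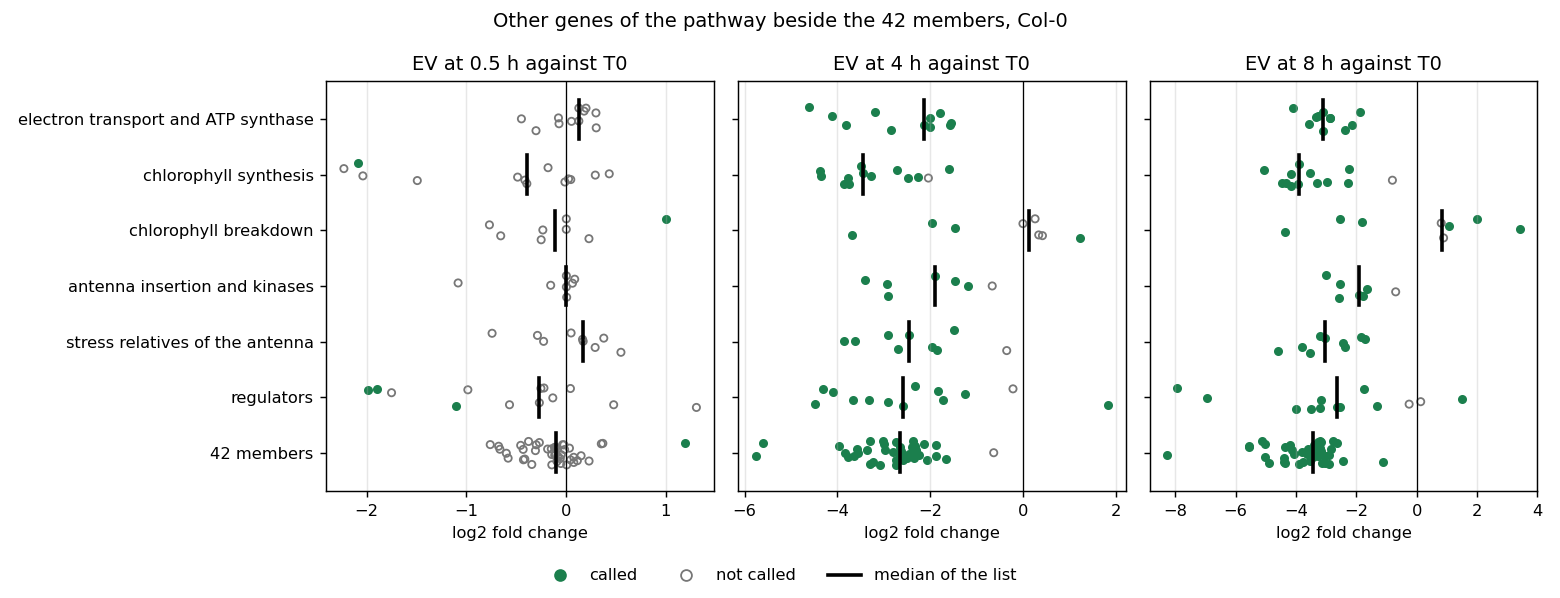
Log2 fold change (x axis) of each gene of 6 other photosynthesis lists and of the 42 members (y axis) in Col-0 under EV at 0.5, 4 and 8 h against T0, with filled points for calls, open points for genes not called and a bar for the median of each list. At 4 h all lists but chlorophyll breakdown have medians between -1.91 and -3.44.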

How the data were processed

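RNA from leaf discs was selected with oligo(dT) and read as 50-base single-end reads, per the labels' protocols. Per the submitters' processing notes, FastQC 0.11.7, Trimmomatic 0.36, HISAT2 2.1.0 and featureCounts of Subread were used with the TAIR10 build, and the strand setting and the Subread version are not given in the sources used here. The authors deposited raw read counts per gene, 25320 genes in 305 libraries of 156 replicates. The 2 libraries of a replicate (149 replicates) were summed, and 7 replicates had 1 library. Libraries of the same replicate differed by more than counting noise (chi-square per degree of freedom 3.44 to 104.4), so no library was treated as deposited more than once.

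The 42 members were tested with all genes in 1 edgeR 4.0.16 (R 4.3.3) quasi-likelihood fit of the 52 group means, after filterByExpr (19687 genes) and TMM scaling (factors 0.6549 to 1.497). Groups took their labels, and 76 contrasts were drawn. A gene was called at a Benjamini-Hochberg adjusted p under 0.05, over all genes tested, and a change of 1 or more on the log2 scale in either direction. CPM are counts scaled to a common library total with TMM factors. Ratios of gene pairs used CPM plus 0.5 on the log2 scale. Tables and plots were made with Python 3.11.15, pandas 2.3.3, numpy 2.4.6 and matplotlib 3.10.9. Alternatives were DESeq2 1.42.0, other scaling, no filter, unsummed libraries, blocks, fewer groups and left-out replicates or libraries. Replicates held 4276389 to 28926563 counts, with a median of 11021790, and the errors given come from the spread between replicates.

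The members and all gene lists were chosen with earlier results of these data known. The genes named are, in each class, the 3 members with the highest mean CPM, per contrast and class up to 3 called members with the largest change (or the 1 with the largest change where none was called), called members opposite to their class, and up to 3 called genes of each other list. Others named beside them were chosen after their values were seen.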

Additional observations from a re-analysis of the deposited data

How the results depend on the processing

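The fall under EV at 4 and 8 h kept its direction in every setting tried, and at 8 h its counts stayed between 41 and 42 members under every left-out replicate. Counts of members called were all within 1.5 times of the reported ones with RLE factors, which shifted the median of all genes by at most 0.12. For counts under any setting but the main fit, in this section and above, the share of all genes called is not given. Such counts show how far the results move with the setting, and they are not set against other genes.

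Leaving out 1 replicate moved the counts as follows. At 0.5 h under EV they ran from 0 to 1 in Col-0, nrg1, adr1 and helperless. At 4 h under EV they ran from 36 to 42, 38 to 41, 31 to 41 and 14 to 41, and from 4 to 8 h from 0 to 1, 0 to 2, 0 to 2 and 0 to 1. With AvrRpt2 at 8 h they ran from 1 to 5 in nrg1, 0 to 16 in adr1 and 0 to 40 in helperless. With AvrRpm1 at 8 h they ran from 0 to 4 in Col-0, 0 to 3 in nrg1, 0 to 7 in adr1 and 1 to 10 in helperless, and at 4 h from 0 to 9 in helperless. With AvrRps4 at 8 h in nrg1 they ran from 0 to 3, and without replicate 1 the 1 higher call was lost and 3 other members were called lower. Between effectors in Col-0 they ran from 0 to 2 for AvrRpm1 and for AvrRpt2 against AvrRps4 at 4 h and from 0 to 1 for AvrRpm1 against AvrRps4 at 8 h.

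From 4 to 8 h under EV, in the order Col-0, nrg1, adr1 and helperless, DESeq2 called 2, 10, 5 and 9 members and unsummed libraries 6, 17, 12 and 12. Without the libraries against their label 0 were called in adr1 and 1 in helperless, without a filter 3 in helperless, and with only the groups compared 2 in Col-0. With unsummed libraries, which count the 2 libraries of a replicate as separate samples, AvrRpt2 at 8 h gave 26 in nrg1 and 27 in adr1. AvrRpm1 at 8 h gave 5, 6, 7 and 15, AvrRps4 at 8 h 8 in nrg1 and 3 in adr1, AvrRpm1 at 4 h 1 in Col-0, 1 in adr1 and 19 in helperless, and in Col-0 AvrRps4 at 4 h and AvrRpt2 at 8 h 1 each. Between effectors they gave 25 and 22 at 4 h for AvrRpm1 and AvrRpt2 against AvrRps4, and 1 and 2 at 8 h. The difference of helperless from Col-0 with AvrRpt2 at 8 h had 2. DESeq2 called 1 member with AvrRpt2 at 8 h in Col-0, 1 with AvrRpm1 at 4 h and 1 with AvrRps4 at 8 h in adr1, 2 with AvrRpm1 at 4 h in helperless, and 1 for AvrRpm1 against AvrRps4 at each time. TMM without photosynthesis genes gave 1 and 2 with AvrRpm1 at 4 h in adr1 and helperless. With AvrRpm1 in Col-0, only the groups compared gave 1 at 4 h and 0 at 8 h, and no filter gave 1 at 8 h. Without the libraries against their label, AvrRpt2 at 8 h gave 7 in nrg1. With library totals only, chosen after the data were seen, the median of all genes shifted by -0.59 to 0.35, by over 0.1 in 42 of 76 contrasts. The counts were then 0 at 0.5 h under EV in Col-0, nrg1 and helperless, 1 and 2 from 4 to 8 h in adr1 and helperless, and, with AvrRpt2 at 8 h, 1 in Col-0, 31 in nrg1 and 33 in adr1. AvrRpm1 gave 6 in nrg1 and 14 in helperless at 8 h, and at 4 h 1 in Col-0, 1 in adr1 and 3 in helperless. There were 5 for AvrRpm1 against AvrRps4 at 4 h. The cause was not tested.

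The replicate block changed the counts from 4 to 8 h under EV to 2 in Col-0, 5 in nrg1 and 5 in adr1, and it changed no other count by over 1.5 times. Within a genotype and time, numbers paired samples of different bacteria weakly at most. Same-numbered replicates correlated at a median of 0.097, over 0.1 in 108 of 216 pairs. Other-numbered ones correlated at a median of -0.065, over 0.1 in 120 of 432 pairs. Replicates of the same bacterium, time and number in different genotypes correlated at a median of 0.474, over 0.1 in 211 of 234 pairs. A block of bacterium, time and number, chosen after the data were seen, gave 1 call for the difference of helperless from Col-0 with AvrRps4 at 8 h. LHCB4.3 and LHCA6 rest on the fewest counts of the members.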

Other observations

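With AvrRpm1 at 8 h in Col-0, 16.5% of all genes were called higher and 11.5% lower. Of the other lists, 1 of 11 genes of electron transport and the ATP synthase and 2 of 13 of chlorophyll synthesis were called lower, 1 of 8 of chlorophyll breakdown and 1 of 7 of antenna insertion and kinases were called higher, 3 of 9 stress relatives of the antenna were called higher and 1 lower, and 2 of 13 regulators were called higher and 1 lower. Apart from the 3 stress relatives called higher, these shares were near or below those of all genes. ELIP1, an early light-induced relative of the antenna proteins, rose by 3.63 ± 0.88 on the log2 scale against EV (edgeR adjusted p = 5.44e-04). LHCB7 rose by 1.52 ± 0.37, the stay-green gene SGR1 by 1.17 ± 0.32 and CPFTSY, a receptor gene for antenna insertion, by 1.15 ± 0.27, and in all 4 genes the AvrRpm1 replicates lay above those of EV. ATPD fell by 1.79 ± 0.60 and GUN4 by 2.27 ± 0.89, both without overlap. The share of all genes whose replicates separated in this way was not counted. These genes were chosen after their values were seen.

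With AvrRpt2 at 8 h the other lists were called lower in the mutants beside the members. Of 13 genes of chlorophyll synthesis, 0 were called lower in Col-0, 6 in nrg1, 7 in adr1 and 9 in helperless, where 4.23%, 13%, 14.5% and 8.53% of all genes were. Of 11 genes of electron transport and the ATP synthase, 1, 7, 9 and 5 were called lower in the same order. The differences between genotypes in these counts were not tested.

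In Col-0 under EV at 8 h, 5 of 6 epidermis markers were called lower than at T0, against 22.3% of all genes, among them PDF1 at -4.70 ± 1.13, as were 3 of 6 guard cell markers (MYB60, GORK and HT1). Of 6 vascular markers 1 was called lower and 1 higher, SWEET12 at 2.75 ± 0.47, where 19.2% of all genes were called higher.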
